A study of Mus musculus with 8 samples.

Results

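The 40 genes described here encode heat shock factors, heat shock proteins and the cytosolic and mitochondrial chaperones and co-chaperones that work with them. Membership was set by gene name, not by measured values, and every array probe set that carries exactly 1 gene symbol, that of a member, was used. 38 of the 40 genes were measured, by 100 probe sets, out of 18193 genes on the array. Hsf1, the main transcription factor of the heat shock response, and Hsp90ab1, the constitutive cytosolic Hsp90, were not analysed here. The livers came from young adult male mice of 2 genotypes, with 1 array per animal. Animals 70, 71, 80 and 82 were txnrd1 cond/+ albCre0: they carried 1 conditional and 1 wild-type allele of txnrd1 and no Cre transgene, and are called control livers. Animals 69, 72, 73 and 81 were txnrd1 cond/- albCre1: they carried 1 conditional and 1 null allele and 1 copy of a Cre transgene driven by the albumin promoter, which is active in hepatocytes, and are called Txnrd1-null livers. Cells of the null livers other than hepatocytes, such as endothelial and Kupffer cells, do not express this Cre and kept their conditional allele. Only the null group carried Cre, so any effect of the transgene itself and of losing Txnrd1 cannot be told apart. All mice were kept alone in a cage for 10 days in cycles of 14 h light and 10 h dark and were killed in the early afternoon. Each value is a linear ratio of an mRNA's signal to about its median over the 8 arrays, so a ratio of 1 is the usual level of that mRNA in these livers, and levels of different mRNAs cannot be compared. In RNA of whole liver, fewer cells of a type and less RNA per cell cannot be told apart.

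Chaperones bind unfolded or partly folded proteins and keep them from aggregating. Hsp70 proteins bind and release short stretches of client proteins in cycles driven by ATP, with J-domain proteins delivering clients and exchange factors such as the Hsp110 and BAG proteins releasing the nucleotide, while Hsp90 matures kinases and steroid receptors handed on from Hsp70. When unfolded protein accumulates, heat shock factor 1 assembles into trimers, enters the nucleus and binds arrays of inverted nGAAn units, called heat shock elements, in front of the inducible chaperone genes. Thioredoxin reductase 1, the enzyme encoded by txnrd1, reduces thioredoxin in the cytosol and thereby serves to keep cysteines of cytosolic proteins reduced.

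Heat shock elements are common in the promoters of these genes. RefSeq promoter windows of GRCm38.p6, from 250 bases before to 50 bases after the transcription start, were held for 33 of the 38 measured members. A pair of inverted units, GAANNTTC or TTCNNGAA (each reads the same on both strands), stood in the window of 16 of the 33 (48.5%), against 17.0% of 27025 genes with a window. The form with 3 units in a row, GAANNTTCNNGAA or TTCNNGAANNTTC, each the other's reverse complement, was found in 5 of the 33 (15.2%), those of Hspd1, Hspe1, Hsph1, Dnajb6 and Chordc1, against 0.662% of all windows. Each 3-unit match also counts as a match of the pair. The Hspd1 and Hspe1 windows lie on opposite strands of chromosome 1 and share 285 bases, so their matches are the same letters. Windows are printed for the head-to-head mitochondrial pair, for the member with the most matches, for the Hsp110 gene Hsph1 and for both inducible Hsp70 genes, whose windows are identical at 296 of 300 bases although their mRNAs gave different values in the same animals. Each is written 5′ to 3′ on the gene's own strand, with the longest run of heat shock units in capitals; in Chordc1 and Hsph1, 1 further pair each, apart from that run, stays in lower case. The Hspe1 window is chr1:55087898-55088197 (plus strand), Chordc1 is chr9:18292017-18292316 (plus), Hsph1 is chr5:149636287-149636586 (minus), Hspa1b is chr17:34959189-34959488 (minus) and Hspa1a is chr17:34972107-34972406 (minus).
Hspe1: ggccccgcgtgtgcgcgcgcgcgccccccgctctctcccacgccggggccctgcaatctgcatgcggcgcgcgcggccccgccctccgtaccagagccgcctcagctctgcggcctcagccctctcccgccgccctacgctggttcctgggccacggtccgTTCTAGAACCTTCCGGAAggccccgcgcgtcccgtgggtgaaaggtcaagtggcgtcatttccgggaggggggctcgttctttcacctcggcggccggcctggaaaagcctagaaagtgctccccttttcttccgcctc
Chordc1: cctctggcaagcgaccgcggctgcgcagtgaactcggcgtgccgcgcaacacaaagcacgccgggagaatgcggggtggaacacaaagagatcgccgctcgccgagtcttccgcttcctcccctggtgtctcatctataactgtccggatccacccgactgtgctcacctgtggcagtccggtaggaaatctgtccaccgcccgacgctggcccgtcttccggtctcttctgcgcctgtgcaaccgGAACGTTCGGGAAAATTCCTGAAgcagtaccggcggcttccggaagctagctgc
Hsph1: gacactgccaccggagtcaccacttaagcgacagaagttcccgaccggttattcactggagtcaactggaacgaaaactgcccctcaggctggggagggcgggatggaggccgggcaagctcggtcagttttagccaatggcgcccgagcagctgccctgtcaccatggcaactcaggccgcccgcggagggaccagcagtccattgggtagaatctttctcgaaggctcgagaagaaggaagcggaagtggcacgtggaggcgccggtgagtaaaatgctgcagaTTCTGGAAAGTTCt
Hspa1b: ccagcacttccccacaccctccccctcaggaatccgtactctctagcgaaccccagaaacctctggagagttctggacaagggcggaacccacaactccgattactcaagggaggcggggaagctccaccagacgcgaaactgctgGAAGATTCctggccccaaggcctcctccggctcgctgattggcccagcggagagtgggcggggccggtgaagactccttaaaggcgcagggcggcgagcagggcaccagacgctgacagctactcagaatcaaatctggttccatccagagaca
Hspa1a: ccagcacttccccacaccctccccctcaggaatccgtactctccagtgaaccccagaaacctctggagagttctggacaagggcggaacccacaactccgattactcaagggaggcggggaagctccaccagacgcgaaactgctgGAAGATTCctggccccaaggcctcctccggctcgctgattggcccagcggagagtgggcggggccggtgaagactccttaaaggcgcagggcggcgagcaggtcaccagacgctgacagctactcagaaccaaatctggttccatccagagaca
In Hspe1 the run of units covers bases -89 to -72 relative to the start, and in Chordc1 it spans the start itself. Hspa1a and Hspa1b each hold 1 pair, at the same place, bases -104 to -97. A match of letters is a description and not a measured binding site.

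None of the 38 chaperone mRNAs differed between Txnrd1-null and control livers by either threshold. At the study's thresholds, a 1.5-fold difference with p of at most 0.05, limma called 0 of 38 members against 0.654% of all 18193 genes (119), and after Benjamini-Hochberg adjustment it called 0 of 38 against 0.0824% of all genes (15). At an unadjusted p of at most 0.05 the count was also 0, against 2.32% of all genes (422), and 0 of the 100 single probe sets passed. With backgrounds this low, a count of 0 among 38 genes is near what the array as a whole gives. The lowest p of a member was 0.0795, of Hspa2, and every adjusted p rounds to 1.00. No member had groups that did not overlap, a pattern seen in 1.71% of all genes (311). An exact permutation test of single members over the 70 ways to divide the 8 animals gave no p below 0.143 (2-sided, smallest possible 0.0286).

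For most members the fit set bounds on how far the average of the probe sets could have moved. Where the probe sets of a gene disagree, this is no bound on the mRNA. The 95% interval of the genotype difference lay within 1.5-fold in either direction for 25 of the 38 members, and for 82.5% of all genes. For the other 13 members the interval reached past 1.5-fold, so these livers set no such bound on them. The estimate itself was under 1.25-fold for 34 members and was 1.5-fold or more for 1, Hspa1b. The median log2 difference, null minus control, was 0.03 over the members and 0.00 over all genes. It was above 0 for 25 members (65.8%) and below 0 for 13, against 51.1% of all genes above 0. The 4 members of 1.25-fold or more were Hspa1b, Hspb1 and Hsph1, which stood higher in the null livers, and Hspa2, which stood lower.

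**Figure D1:**
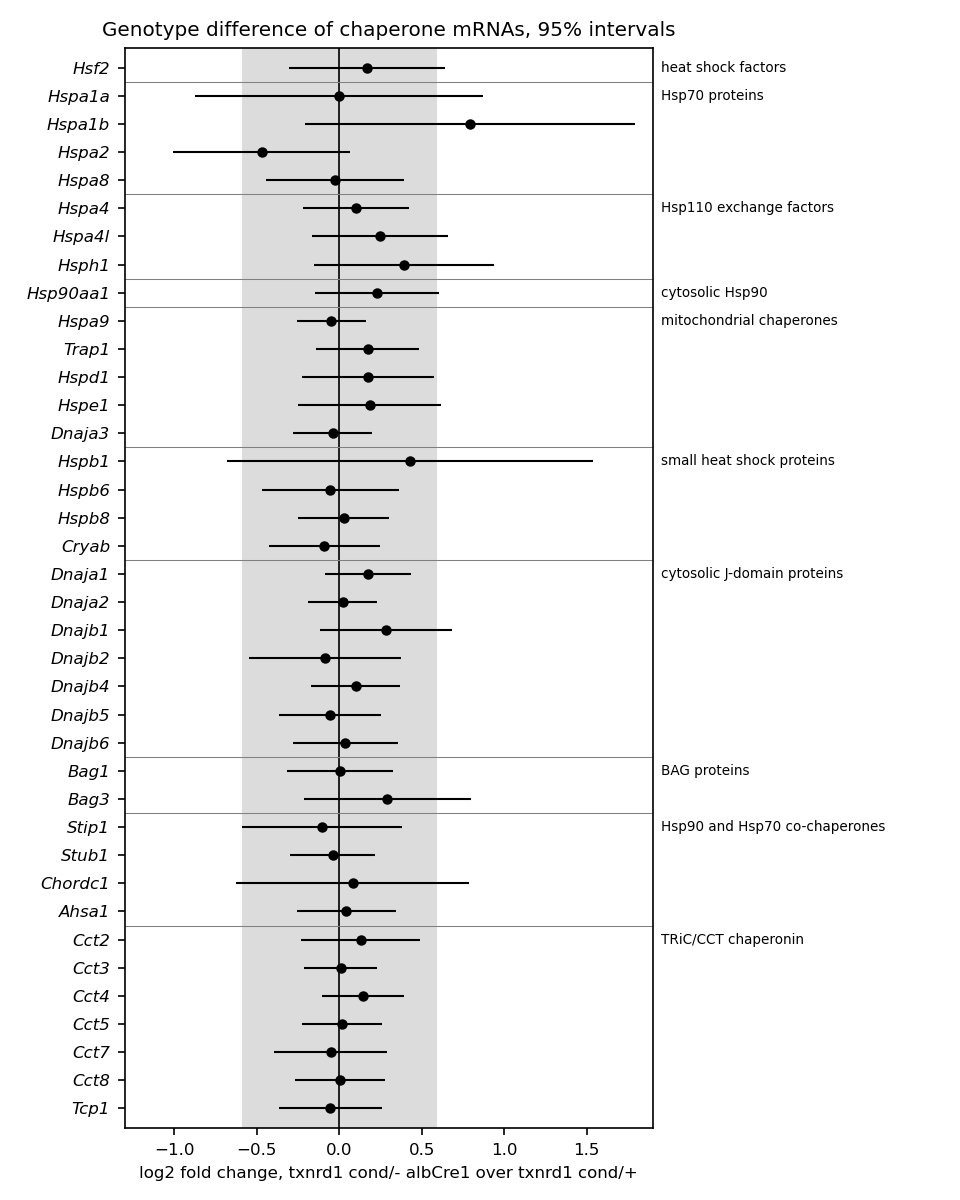
Genotype difference of each of the 38 measured chaperone mRNAs, in order of role. Points are the limma log2 fold change of txnrd1 cond/- albCre1 over txnrd1 cond/+ livers (n = 4 each), bars are 95% intervals and the grey band is 1.5-fold in either direction. All 38 intervals cross 0, and 25 lie inside the band.

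On the same arrays the genotypes separated clearly for Nqo1, chosen as a check. The study had already reported its mRNA as induced in the null livers. Nqo1, a quinone reductase under the control of the transcription factor Nrf2, stood at a ratio of 0.322 ± 0.0973 in control livers and 1.91 ± 0.546 in null livers (SD, n = 4 each), a log2 difference of 2.58 (SE 0.24, limma adjusted p = 0.00585). The 3 probe sets of Txnrd1 differed in direction, with log2 differences of 1.11, -0.71 and -0.41, and since the files do not place them inside or outside the deleted exons, they are no check of the genotype labels. Because ratios keep no level, hepatocyte markers could not be used to check the tissue. The median log2 difference of 9 hepatocyte markers was -0.07, and 0 of 64 markers of 9 cell types differed between the genotypes at an unadjusted p of at most 0.05.

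The Hsp70 group held both the highest and the lowest differences of all members. Hspa1a and Hspa1b encode the stress-inducible Hsp70, 2 nearly identical proteins from neighbouring genes, and Hspa8 encodes the constitutive Hsc70 that also uncoats clathrin vesicles. For Hspa1b the ratios were 1.30, 1.03, 0.834 and 0.578 in control animals 70, 71, 80 and 82, and 2.46, 0.766, 0.969 and 3.16 in null animals 69, 72, 73 and 81. Animals 69 and 81 stood above every control liver, while animals 72 and 73 lay among the controls. The means were 0.936 ± 0.306 and 1.84 ± 1.16 (SD, n = 4 each), a fold of 1.73 with a 95% interval of 0.865 to 3.46 (log2 0.79, SE 0.45, limma unadjusted p = 0.108, exact permutation p = 0.286). All 3 Hspa1b probe sets gave much the same log2 difference, 0.71 to 0.89. The difference was 0.08 on the log2 scale among animals numbered 69 to 73 and 2.19 among animals 80 to 82, of which only animal 81 was null. Without animal 72 it was 1.13 and passed the study's thresholds, and without animal 81 it was 0.45, the lowest of the 8 fits that leave out 1 animal.

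Hspa1a was read by 1 probe set and, like Hspa1b, was highest in animals 69, 70 and 81. Its group means, unlike those of Hspa1b, were level. Its ratios were 1.83, 0.589, 1.07 and 0.942 in control animals 70, 71, 80 and 82, and 1.49, 0.616, 0.736 and 1.59 in null animals 69, 72, 73 and 81. Animal 70, a control, was the highest of the 8, followed by the same null animals, 81 and 69, that were high for Hspa1b. Group means were equal, at 1.11 ± 0.522 and 1.11 ± 0.505 (SD, n = 4 each), and the fold of 0.999 had a 95% interval of 0.546 to 1.83 (log2 -0.00, SE 0.39). The 2 genes are so alike that array probes may read both, and their separation on this array was not tested.

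Hspa2, an Hsp70 best known from the testis, showed the lowest difference. Control animals 70, 71, 80 and 82 had ratios of 1.60, 1.06, 1.48 and 0.946, and null animals 69, 72, 73 and 81 had 1.39, 0.680, 0.828 and 0.825. Animals 72, 73 and 81 stood below all controls and animal 69 stood among them. The fold was 0.722, with a 95% interval of 0.497 to 1.05 (log2 -0.47, SE 0.24, limma unadjusted p = 0.0795, exact permutation p = 0.143). It was -0.50 on the log2 scale among animals 69 to 73 and -0.52 among animals 80 to 82. Without animal 69 it passed the study's thresholds (log2 -0.68), as it did without animal 82 (log2 -0.60), while the difference shrank to -0.34 without animal 72 and -0.35 without animal 70. For Hspa8 the ratios were 0.751, 1.02, 1.33 and 1.03 in the controls and 0.962, 1.06, 0.788 and 1.21 in the null livers, in the same order of animals. The null values lay wholly inside the control range, and the fold was 0.980 (95% interval 0.734 to 1.31).

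The 3 Hsp110 proteins, which release ADP from Hsp70 so that it can let go of its client, all stood above 0 without passing the test, with log2 differences of 0.10 for Hspa4, 0.25 for Hspa4l and 0.39 for Hsph1. Hsph1 is the strongly heat-inducible one, and its ratios were 0.831, 0.801, 1.34 and 0.624 in control animals 70, 71, 80 and 82 and 1.15, 0.811, 1.22 and 1.47 in null animals 69, 72, 73 and 81. The groups overlapped through control animal 80, which stood above all null livers but 81, and through null animal 72, which lay among the low controls. The fold was 1.31 (95% interval 0.899 to 1.92, limma unadjusted p = 0.139, exact permutation p = 0.257), and both probe sets gave nearly the same value, 0.38 and 0.40 on the log2 scale. Hsph1 passed the study's thresholds without animal 80 (log2 0.61), and its difference shrank to 0.24 without animal 82 and 0.27 without animal 81.

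For Hsp90aa1, the inducible cytosolic Hsp90, control animals 70, 71, 80 and 82 had ratios of 0.920, 0.982, 1.23 and 0.706 and null animals 69, 72, 73 and 81 had 1.00, 0.986, 1.23 and 1.21. All null livers stood above 3 of the controls, and control animal 80 was level with null animal 73, the highest of its group. The fold was 1.17 (95% interval 0.902 to 1.52, limma unadjusted p = 0.207, exact permutation p = 0.20). On the log2 scale the difference of 0.23 was 0.09 without animal 82 and 0.36 without animal 80, where the unadjusted p was under 0.05 but the fold under 1.5. Its 5 probe sets ranged from -0.06 to 0.41 on the log2 scale and differed in direction.

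**Figure D2:**
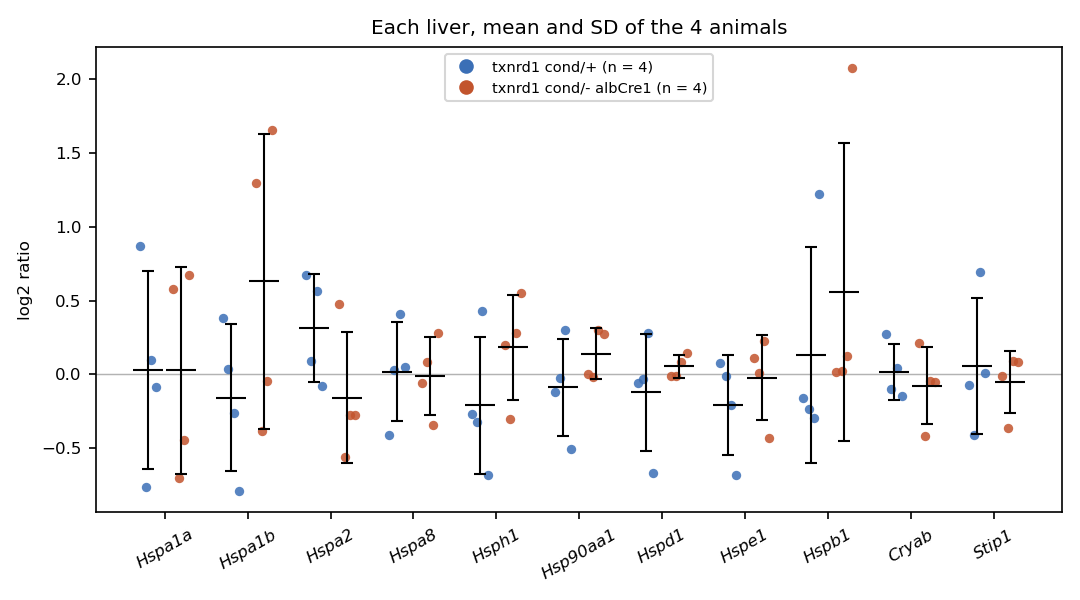
Log2 ratio of 11 chaperone mRNAs in each liver: the main Hsp70, Hsp90 and mitochondrial chaperones that were measured, and the members of largest difference or spread. Points are animals (blue, txnrd1 cond/+; orange, txnrd1 cond/- albCre1; n = 4 each) and black lines are the mean and SD of each genotype. Hspa1b is high in null animals 69 and 81, and Hspb1 in 1 liver of each genotype.

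Of the 5 mitochondrial chaperones, Hspd1 (Hsp60) and Hspe1 (Hsp10) form the folding chamber of the matrix and are transcribed from the shared promoter printed above. Hspd1 had ratios of 0.960, 0.979, 1.21 and 0.628 in control animals 70, 71, 80 and 82 and of 0.994, 0.995, 1.06 and 1.11 in null animals 69, 72, 73 and 81. The control livers covered the whole range of the null ones, from animal 82 at the bottom to animal 80 at the top. For Hspe1 the values were 1.05, 0.991, 0.867 and 0.624 in the controls and 1.08, 1.01, 1.17 and 0.740 in the null livers. Animal 82 was lowest for both mRNAs, and animals 80 and 81, the highest control and null livers for Hspd1, were below 1 for Hspe1. The folds were 1.13 (95% interval 0.855 to 1.49) for Hspd1 and 1.14 (0.842 to 1.53) for Hspe1. Without animal 82 the log2 difference was -0.01 for Hspd1 (0.17 with all animals) and 0.03 for Hspe1 (0.18 with all animals). It reached 0.31 for Hspd1 without animal 80 and 0.32 for Hspe1 without animal 81. Log2 differences were 0.17 for Trap1, the mitochondrial Hsp90, -0.05 for Hspa9, the mitochondrial Hsp70 that pulls proteins through the inner membrane, and -0.04 for its J-domain partner Dnaja3. The 5 probe sets of Hspa9 ranged from -0.34 to 0.15 and those of Dnaja3 from -0.22 to 0.12.

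Among the 4 small heat shock proteins, which hold unfolding proteins without using ATP, Hspb1 (Hsp25) had the widest spread of all members. Its ratios were 0.893, 0.849, 0.815 and 2.33 in control animals 70, 71, 80 and 82, and 1.01, 1.02, 1.09 and 4.22 in null animals 69, 72, 73 and 81. A single liver of each genotype was high, animal 82 among the controls and animal 81 among the null livers, and the remaining null livers stood slightly above the remaining controls. The fold was 1.35 with a 95% interval of 0.623 to 2.91 (limma unadjusted p = 0.409, exact permutation p = 0.457), both probe sets gave the same picture, and without animal 81 the log2 difference was -0.08. Animals 82 and 81 were also the lowest of their genotype in the mean log2 ratio of 7 neutrophil markers (-0.56 and -0.63, other livers from -0.11 to 0.64) and of 8 stellate cell markers (-0.37 and -0.28, other livers from -0.16 to 0.21). In animal 82 the low neutrophil mean came from S100a8 (ratio 0.167) and S100a9 (0.398), with the other neutrophil markers at 0.904 to 1.04. Not all cell types went this way: the mean of 8 Kupffer cell and macrophage markers was -0.34 in animal 82 and 0.11 in animal 81. The part of cell content in the Hspb1 values was not tested. Cryab (alphaB-crystallin) had ratios of 1.21, 0.933, 1.03 and 0.903 in control animals 70, 71, 80 and 82 and 1.16, 0.750, 0.969 and 0.965 in null animals 69, 72, 73 and 81. Only animal 72 lay outside the control range, and the fold was 0.938 (95% interval 0.743 to 1.18). Hspb6, a small heat shock protein of muscle, had a log2 difference of -0.06, and Hspb8, the partner of Bag3, one of 0.03.

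The 7 cytosolic J-domain proteins, which bring clients to Hsp70 and start its ATP hydrolysis, had a median log2 difference of 0.04. Dnajb1 (Hsp40), the heat-inducible one, was the highest at 0.28 (SE 0.18, limma unadjusted p = 0.143, exact permutation p = 0.229), with ratios from 0.800 to 1.03 in the controls and from 0.793 in animal 72 to 1.45 in animal 81 among the null livers. Dnaja1, which like Dnajb1 works with cytosolic Hsp70, was at 0.17, Dnajb4 at 0.10, Dnajb6, a suppressor of aggregation, at 0.04 and Dnaja2 at 0.02, while Dnajb5 was at -0.06 and Dnajb2 at -0.09. Probe sets of Dnaja2, Dnajb5 and Dnajb6 differed in direction, by at most 0.28 within a gene.

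Bag3, which couples Hsp70 to autophagy, stood at 0.29 (SE 0.23) and Bag1, which couples it to the proteasome, at 0.01. The Bag3 ratio was 0.524 in animal 82 and 0.900 to 1.31 in the other 7 livers. Stip1 (Hop), which holds Hsp70 and Hsp90 together while a client is passed on, had ratios of 0.953, 0.752, 1.61 and 1.01 in control animals 70, 71, 80 and 82 and 0.991, 0.779, 1.06 and 1.06 in null animals 69, 72, 73 and 81. Animal 80 was the highest, and all null values lay within the control range. The fold was 0.929 (95% interval 0.665 to 1.30), and without animal 80 the log2 difference was 0.11. Stub1 (CHIP), the ubiquitin ligase of the chaperone system, was at -0.04, Ahsa1, which stimulates the Hsp90 ATPase, at 0.04, and Chordc1, an Hsp90-binding protein, at 0.08. The Chordc1 ratio ranged from 0.445 in animal 82 to 1.51 in animal 80, both controls, while the null livers lay between 0.761 and 1.12.

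TRiC/CCT is the cytosolic ring chaperonin that folds actin and tubulin, and 7 of its subunits are members. Their log2 differences lay between -0.05 (Tcp1 and Cct7) and 0.14 (Cct4), with Cct2 at 0.13, Cct5 at 0.02, Cct3 at 0.01 and Cct8 at 0.00, and a median of 0.01. All 7 intervals lay within 1.5-fold in either direction. They rest on averages of probe sets, and those of Cct3, Cct4, Cct7 and Cct8 differed in direction. Single probe sets ranged from -0.06 to 0.33 for Cct4 and from 0.01 to 0.31 for Cct2. Of the 27 members with several probe sets, 13 had probe sets that differed in direction. Hsf2, a heat shock factor active in development, was at 0.17 (95% interval -0.30 to 0.64), with ratios of 0.626 to 1.16 in the controls and 0.730 to 1.19 in the null livers.

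**Figure D3:**
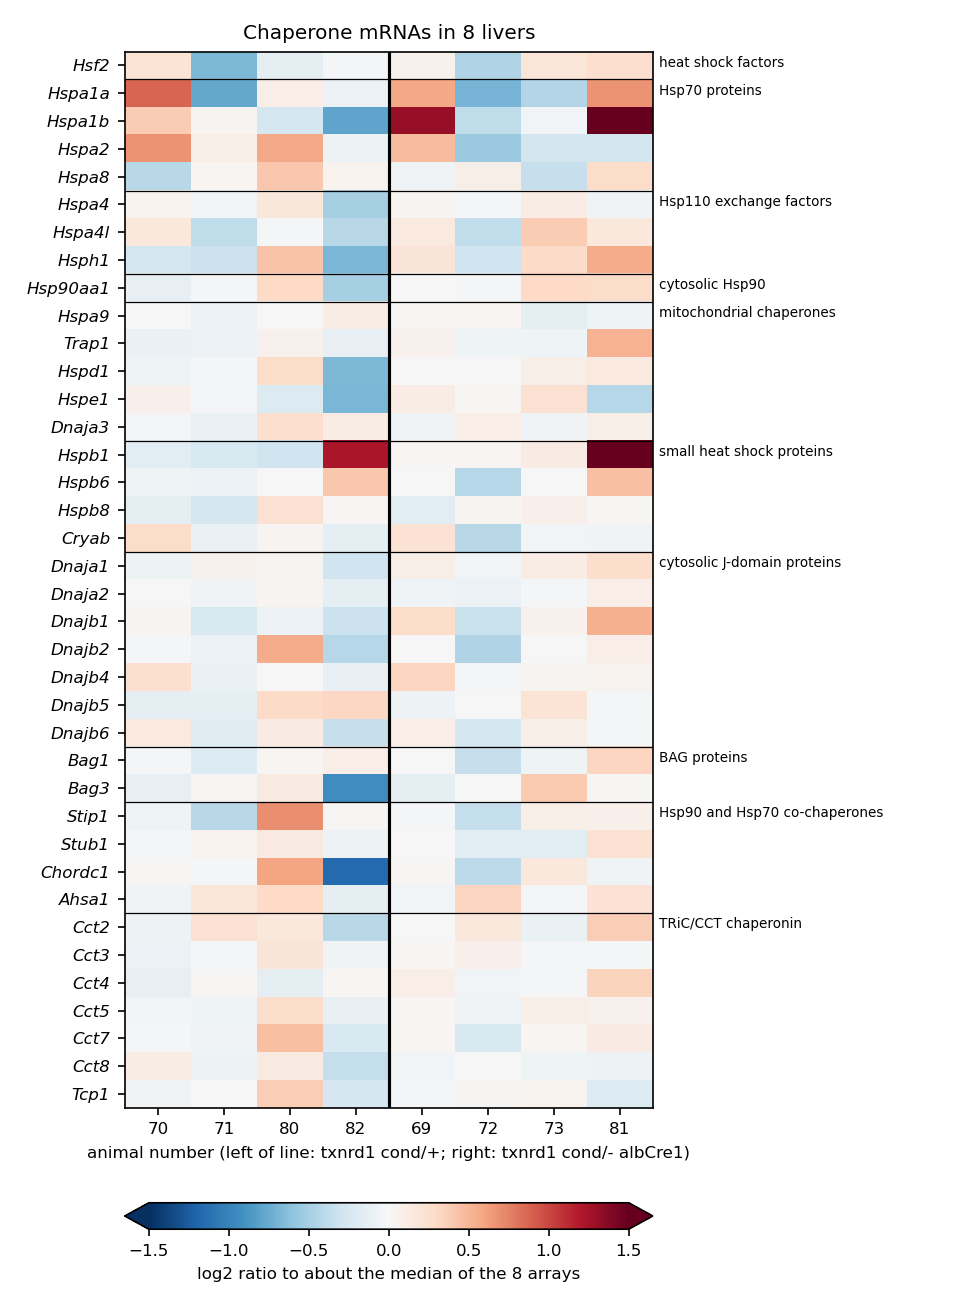
Log2 ratio of the 38 measured chaperone mRNAs (rows, by role) in the 8 livers (columns; the 4 left of the line are txnrd1 cond/+, the 4 on the right txnrd1 cond/- albCre1). Red is above and blue below about the median of the 8 arrays, and the colour scale ends at 1.5. The columns do not sort by genotype: animal 82 is blue in most rows, though red in Hspb1, Hspb6, Dnajb5 and some others. Animals 80 and 81 are red in most.

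Several members varied widely from liver to liver within a genotype, and others hardly at all. The SD of the log2 ratio between livers of 1 genotype, pooled over both genotypes, had a median of 0.23 over the members and 0.20 over all genes. 6 members lay above the 90th percentile of all genes: Hspb1 (SD 0.88, percentile 99.3), Hspa1b (0.79, 99.1), Hspa1a (0.69, 98.7), Chordc1 (0.55, 97.1), Hsph1 (0.41, 92.4) and Hspa2 (0.41, 91.9). All but Hspa2 are known heat shock factor targets, but other inducible members were less extreme, such as Hsp90aa1 (percentile 70.9) and Dnajb1 (75.8). Hspa1a, Chordc1 and Hspa2 were read by 1 probe set each. At the other end, Hspa9 (SD 0.08, percentile 3.82), Dnaja2 (0.08, 4.14) and Cct3 (0.10, 7.93) lay below the 10th percentile. These 3 genes were read by 5, 4 and 7 probe sets, and averaging several probe sets lowers the SD. The group's median percentile was 95.3 for the Hsp70 proteins and 34.0 for TRiC/CCT.

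**Figure D4:**
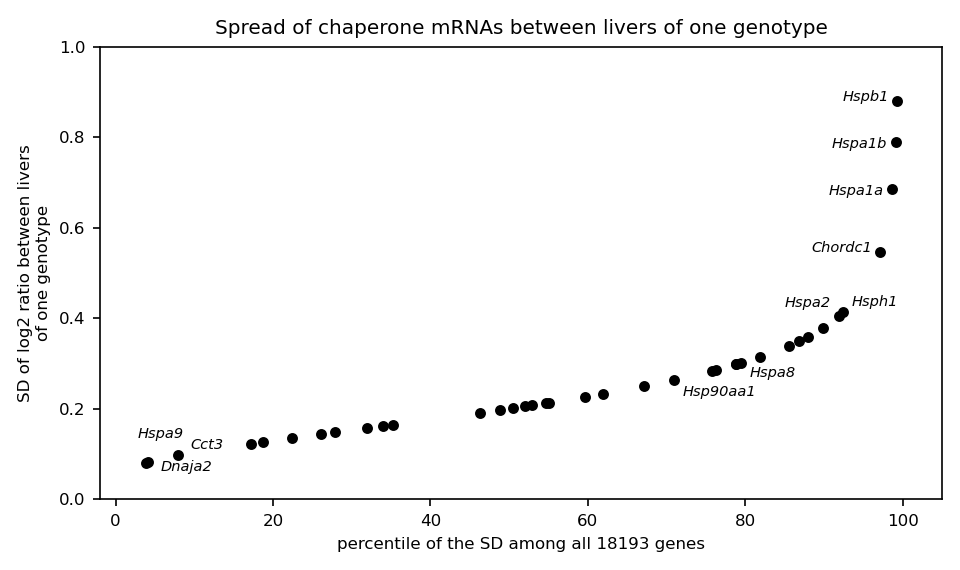
Spread of each chaperone mRNA between livers of 1 genotype. The vertical axis is the within-genotype SD of the log2 ratio, pooled over both genotypes, and the horizontal axis its percentile among all 18193 genes. Hspb1, Hspa1b, Hspa1a and Chordc1 stand apart at the top, and Hspa9, Dnaja2 and Cct3 lie at the bottom.

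Many chaperone mRNAs were low or high in the same animals. Among the controls, animal 82 had the lowest ratio for 25 of 38 members (65.8%), against 30.1% of all genes, and animal 80 the highest for 20 (52.6%), against 25.7%. Among the null livers, animal 72 was the lowest for 22 members (57.9%), against 36.9% of all genes, and animal 81 the highest for 18 (47.4%), against 26.5%. The mean log2 ratio over the 38 members was 0.03, -0.11, 0.16 and -0.20 in control animals 70, 71, 80 and 82 and 0.09, -0.15, 0.03 and 0.23 in null animals 69, 72, 73 and 81. Both genotypes thus held a low and a high liver, and the groups overlapped. For the 17 members known to be induced by heat shock, the animals' means spread further, at 0.04, -0.14, 0.14 and -0.33 in the controls and 0.18, -0.17, 0.08 and 0.38 in the null livers. The median log2 difference of these 17 was 0.17, with 13 above 0, against 51.1% of all genes. At an unadjusted limma p of at most 0.05 the count was 0 of 17, near the 2.32% of all genes. Spiked hybridization controls are added to the labelled RNA. Their mean log2 ratio was 0.15, -0.51, 0.35 and -0.19 on the control arrays. On the null arrays it was 0.28, -0.42, 0.43 and -0.42, in the same order of animals. The probe sets used include some for cre, which only the null livers carried as a transgene. The mean may therefore not be free of genotype, and the part of the transgene in it was not tested. With this mean as a term in the fit, 1 member (Hspa2) had an unadjusted p of at most 0.05 and 0 passed either threshold. Array weights in limma are lower for arrays that lie further from the fit. They were lowest for animals 72 (0.460) and 82 (0.493), and 0.858 to 2.44 for the others. With these weights in the fit 0 members passed either threshold. Animal 72 was also the highest null liver for 32.7% of all genes, and animal 82 the highest control for 28.0%. The part of the array in the order of the animals was not otherwise tested.

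**Figure D5:**
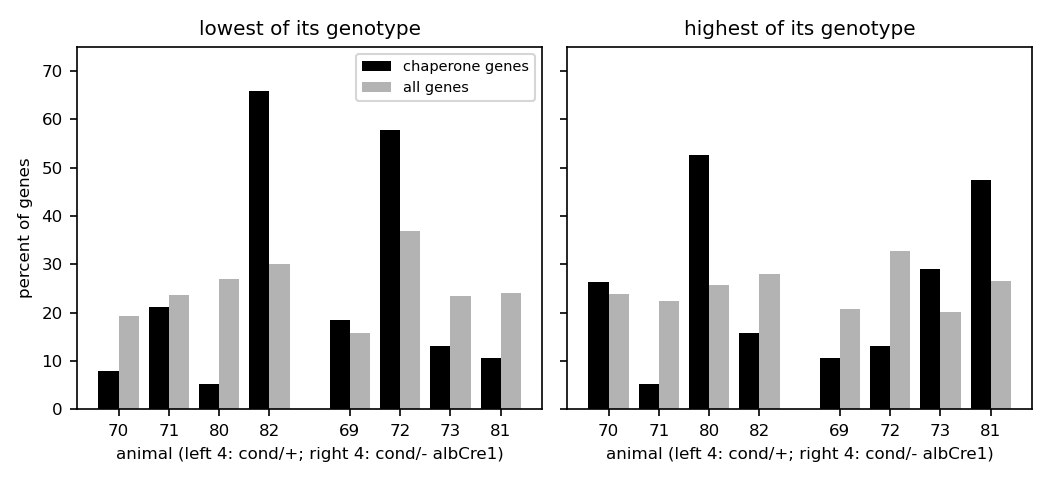
Percent of the 38 chaperone genes (black) and of all genes (grey) for which an animal had the lowest (left) or highest (right) ratio of its genotype. Animals 82 and 72 are lowest, and animals 80 and 81 highest, for a larger share of the chaperone genes than of all genes.

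Genes of the same pathways outside the 38 gave a similar count. Of 80 further chaperone genes, 75 were measured, 1 was higher in null livers at the study's thresholds and 0 were lower, against 0.654% of all genes called in either direction, and 0 passed after adjustment in limma. The 1 gene was Tbce, a tubulin-folding cofactor that works downstream of TRiC/CCT. Its ratios were 1.01, 0.730, 0.489 and 0.781 in control animals 70, 71, 80 and 82 and 1.20, 0.982, 1.01 and 1.31 in null animals 69, 72, 73 and 81. Control animal 70 stood above null animal 72 and level with 73, so the groups overlapped (log2 0.62, SE 0.21, limma unadjusted p = 0.0133, exact permutation p = 0.0571, adjusted p = 1.00). At p of at most 0.05 without a fold minimum there was also Dnaja4, a J-domain protein, named after its values were seen, with 1.05 to 1.32 in the controls and 0.885 to 0.960 in the null livers, which did not overlap (log2 -0.33, SE 0.10, limma unadjusted p = 0.00965, exact permutation p = 0.0286, adjusted p = 1.00). Of 16 further Hsp90 and Hsp70 co-chaperones measured, such as Fkbp5 and Cdc37, 15 had a log2 difference below 0, with a median of -0.04. In limma 0 had an unadjusted p of at most 0.05. Over all genes 51.1% lay above 0, and genes read in the same livers are not independent.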

How the data were processed

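Liver RNA of 8 mice was hybridized to Affymetrix mouse expression arrays, 1 per animal. The authors deposited linear ratios for 45101 probe sets; their methods name GeneSpring and the submitters' processing notes name RMA with no version. Array medians of the deposited ratios are 0.997 to 0.999, and 99.0% of probe sets have a median within 0.05 of 1 over the arrays. The study's minimum signal cannot be applied to ratios, so genes that liver does not express are included. 64 control probe sets were left out and 5 empty values stayed empty. Probe sets with 1 symbol (34945) were averaged per gene on the log2 scale; 932 have several symbols and 9160 none.

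Genotypes were compared over all 18193 genes with limma 3.58.1 in R 4.3.3 (lmFit, then eBayes, testing both directions), with Benjamini-Hochberg adjustment. The methods of the study ask for 1.5-fold and p of at most 0.05, which was taken here as unadjusted. A fold compares geometric means, while mean ± SD refers to linear ratios. Each array is a separate animal. Depth does not apply to arrays, whose number limits the precision. The alternatives were other scalings, probe set rules, variance models, covariates and leaving out each animal. The members, gene lists and tests were chosen with earlier results of these data known. Values in every animal are given for the 3 members of largest rise, fall and spread and for the main Hsp70, Hsp90 and mitochondrial chaperones. The code was tested on simulated data. Python 3.11.15 and matplotlib 3.10.9 drew the figures.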

Additional observations from a re-analysis of the deposited data

Results flagged for a closer look

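In 3 of 76 sets of 4 livers (38 members in each genotype), 1 liver stood apart from the other 3 beyond Dixon's 95% critical value (log2 scale), where chance alone would flag about 5% of sets, or 3.8. For Hspb1, control animal 82 had a ratio of 2.33 and the next highest control 0.893, a gap of 0.913 of the group's range. In the null group animal 81 had a Hspb1 ratio of 4.22 and the next highest liver 1.09, a gap of 0.948 of the range. For Dnajb2, a J-domain protein, null animal 72 stood at 0.734 and the next lowest null liver at 1.00, a gap of 0.832 of the range.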

How the results depend on the processing

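After adjustment 0 members were called under all 18 alternatives. At the study's thresholds the count was 0 in the main fit, against 119 of all genes (0.654%), and 0 or 1 under the alternatives. It was 1 (Hspa1b, log2 0.79) with the flatter probe sets left out, where 31 members remained and 172 genes were called in all. When 1 animal was left out it was 0 to 1. The 1 was Hsph1 without animal 80, Hspa2 without 82, Hspa2 without 69 and Hspa1b without 72. Over all genes these fits called 115, 165, 127 and 182 genes, in that order. At an unadjusted limma p of at most 0.05 alone, the count was 0 in the main fit and 4 without animal 72. These were Hspa1b, Hsph1, Hspa4l and Dnajb1, all higher in null livers. It was 2 without animal 80 (Hsph1 and Hsp90aa1), and 0 or 1 in the other alternatives. The matching share of all genes was not counted for these fits. The median of the members lay between -0.01 and 0.11 when 1 animal was left out. Of 209 values of the 11 members with full data, 189 kept direction and side of the thresholds, 5 passed the study's thresholds and 15 changed sign. Of these, Hspa1a (log2 -0.00) was 0.0222 with quantile normalization, 0.0440 with array weights and 0.0834 with animals numbered in the 80s marked by a term, and -0.27 to 0.28 without 1 animal. Hspa8 (-0.03) was 0.0697 by its most variable probe set and 0.0725 with the same term, and -0.17 to 0.10 without 1 animal. Without 1 animal Stip1 ranged from -0.26 to 0.11, Hspd1 from -0.00864 to 0.31, Cryab from -0.19 to 0.0218 and Hspb1 from -0.0767 to 0.79. Members that kept their sign ranged from -0.68 to -0.34 (Hspa2), 0.24 to 0.61 (Hsph1), 0.09 to 0.36 (Hsp90aa1), 0.03 to 0.32 (Hspe1) and 0.45 to 1.13 (Hspa1b). The cause of these changes was not tested. No paired analysis was possible because the groups share no animal number. With 4 arrays a genotype and ratios in place of signals, neither dim probe sets nor small differences can be judged.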

Other observations

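The 75 further chaperone genes measured fall into groups, of which the co-chaperones are described above. Of 15 ER chaperones, which fold secreted proteins, 0 had a limma p of 0.05 or less before adjustment and 7 stood above 0, with a median log2 difference of -0.06. For the 6 prefoldin subunits, which hand actin and tubulin to TRiC/CCT, the median was 0.16, from -0.11 for Pfdn6 to 0.21 for Vbp1, and 0 had a limma p of 0.05 or less. The 10 further CCT subunits and regulators, Tbce among them, had a median of 0.10, the 14 further Hsp70 and J-domain proteins, with Dnaja4, -0.01, the 8 mitochondrial import and protease partners 0.03, and the 6 further small heat shock proteins and regulators of heat shock factors 0.05.

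Of the 64 markers of 9 cell types, 49 had a log2 difference below 0, while 51.1% of all genes lay above 0. Hepatocyte markers were among them, with 6 of 9 below 0 and a median of -0.07. All 8 liver endothelial markers had a log2 difference below 0 (median -0.16, 0 of 8 with a limma p of 0.05 or less), and their mean log2 ratio was -0.15 to 0.37 in control livers and -0.30 to 0.10 in null livers. The 8 stellate cell markers were also all below 0 (median -0.11), with means of -0.37 to 0.21 and -0.28 to 0.19. Median log2 differences were -0.03 for 8 Kupffer cell and macrophage markers, -0.10 for 7 neutrophil markers, -0.04 for 6 cholangiocyte markers, -0.01 for 7 lymphocyte markers, -0.23 for 3 erythroid markers and -0.01 for 8 muscle markers. Their part in the chaperone values was not tested.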
